A study of Mus musculus with 8 samples.

Results

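Goblet cells are the mucus-secreting cells of the gut lining, and the genes described here encode their secreted products and the factors that make them. A list of 10 genes defined the set: Muc2, Tff3, Fcgbp, Zg16, Agr2, Spink4, Retnlb, Spdef, Galnt12 and Klk1. A row was taken when the platform annotation gave it 1 of these symbols, which found 8 genes, each with 1 row, among the 18097 rows of the array. Muc2, the gel-forming mucin, and Fcgbp, a protein that is bound into its gel, had no row under their symbol and are not analysed here. All 8 of the others were detected on all 8 arrays, so none depended on the filter for low signals.

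In the colon, goblet cells arise from the secretory branch of the crypt, next to enteroendocrine and tuft cells. The transcription factor Spdef drives their maturation, the endoplasmic reticulum protein Agr2 is needed in mice for the mucin to be made, and transferases such as Galnt12 attach the first sugars to it. The finished granules release the mucin together with small proteins: the trefoil peptide Tff3, the lectin Zg16, the resistin-like protein Retnlb, the Kazal-type protease inhibitor Spink4 and the tissue kallikrein Klk1, a serine protease.

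RNA of the colonic mucosa came from 4 male mice aged 157 days on a mixed 129Sv/B6/D2 background. The genotype was Dnmt1LO/LO in all 4, with TgVillacIGY in addition in 2. The 2 mice that had only Dnmt1LO/LO are named control mice here, and the other two transgenic mice. The labels spell out neither name and do not state which promoter or cell type drives the transgene, and no mouse without Dnmt1LO/LO was included, so the comparison is of the transgene on that background. The series asks what inhibition of Dnmt1, the enzyme that keeps DNA methylation in place through cell division, does to colonic gene expression. Both arrays of a mouse count together as a single replicate, which leaves n = 2 for each genotype; nothing in the labels ties a mouse to a litter or a cage. The 2 arrays of transgenic mouse 1 had mean raw signals of 698 and 753, whereas the other 6 arrays ran from 866 to 1080. Dnmt1 itself had a log2 level of 9.28 ± 0.16 in the control group and of 7.08 ± 0.48 in the transgenic group (SD, n = 2), which was not called (limma, adjusted p = 0.129). The goblet cell identity of the tissue could be checked on rows outside the set: Clca1, a secreted protein of goblet cell mucus, was detected on all arrays, and Clca3a1 on none.

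No goblet gene of the set passed the test between genotypes. Of the 8, 5 had higher and 3 lower means in transgenic mice, with a median difference of 0.28 on the log2 scale against -0.01 for all 6982 rows tested. Tff3 had the largest absolute difference and the smallest p of the 8. By limma at an adjusted p under 0.05, 0 of 8 members were called, where 0.129% of all rows tested were called. At an unadjusted p under 0.05 there was 1 member, Tff3, against 8.36% of all rows. The means of the transgenic mice were both above those of the control mice for 2 members, Galnt12 and Retnlb, and both below for 2, Tff3 and Zg16; over all rows these shares were 21.7% and 20.9%. Leaving out transgenic mouse 1 put the median difference of the members at -0.01, and leaving out mouse 2 put it at 0.45. Without transgenic mouse 2, 3 members were called, Tff3, Spdef and Agr2, beside 849 of all rows against 9 with all mice; without any other mouse 0 members were called.

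Tff3, the trefoil peptide that stabilises mucus and helps the epithelium close wounds, had the clearest separation of the genotypes. Its raw signal was 20973 and 22980 on the arrays of control mouse 1 and 29037 and 22665 on those of control mouse 2. On the arrays of transgenic mouse 1 it was 8328 and 9509, and on those of transgenic mouse 2 it was 14666 and 15629. Every transgenic array was thus below every control array. Normalized log2 levels averaged 14.41 ± 0.09 over the control mice and 13.63 ± 0.19 over the transgenic mice (SD, n = 2). The difference of -0.77 ± 0.19 (SE), or 1.71-fold lower, had an unadjusted 95% interval of -1.26 to -0.29 and did not pass over all rows (limma, adjusted p = 0.375). Against the control mean, transgenic mouse 1 stood at -0.91 and mouse 2 at -0.64. Without transgenic mouse 2, where only the control mice give the spread, Tff3 was called (limma, adjusted p = 0.0371).

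Zg16 is a lectin that binds the cell wall of Gram-positive bacteria and keeps them out of the inner mucus. After quantile normalization it was lower mainly in a single mouse. Raw signals were 57542 and 53659 in control mouse 1, 58971 and 56991 in control mouse 2, 30304 and 34489 in transgenic mouse 1, then 56760 and 46252 in transgenic mouse 2. The arrays of transgenic mouse 2 reached into the control range, whereas those of transgenic mouse 1 were far below it. Those arrays of transgenic mouse 1 also had the lowest mean raw signals, as given above. The normalized difference was -0.28 ± 0.19 (SE, limma, adjusted p = 0.716), made up of -0.45 in transgenic mouse 1 and -0.11 in transgenic mouse 2. This split depends on the scaling between arrays. With arrays scaled on the rows detected on all 8, the difference between genotypes was -0.37. Transgenic mouse 1 relative to mouse 2 was then at -0.12.

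Normalized levels of Zg16 and of 3 other secreted products came from signals near the top of the scale. The highest signal on an array was 61213 to 65702. Zg16 stood at 49.5% to 90.9% of the highest signal of its array, Spink4 at 68.5% to 97.1%, Retnlb at 45.5% to 88.4% and Klk1 at 50.3% to 72.6%. How far the scale was still linear there was not tested. Spdef, Agr2 and Galnt12 lay at 0.694% to 6.46% of the highest signal.

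**Figure D1:**
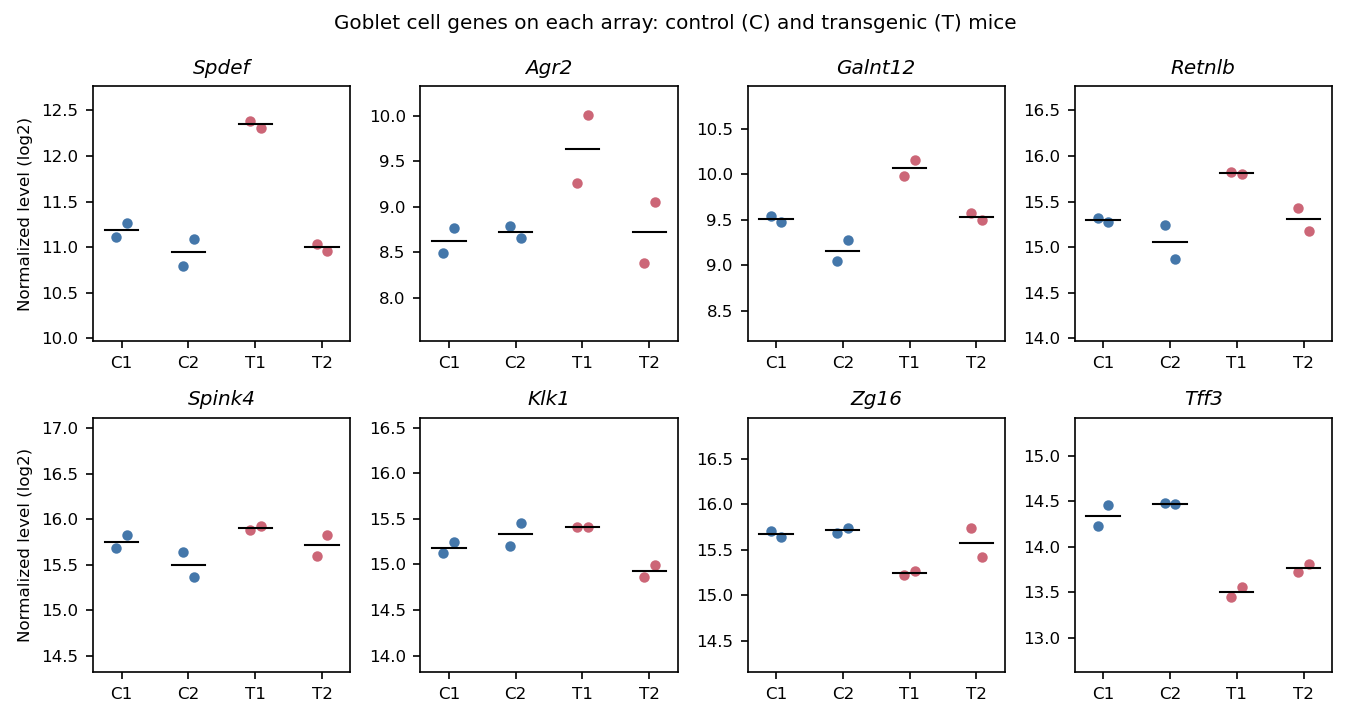
Normalized level (log2, vertical axis) of the 8 goblet cell genes on each array, with the control mice C1 and C2 and the transgenic mice T1 and T2 on the horizontal axis. Points are arrays, bars are the mean of a mouse, and every panel spans a log2 range of the same width. Spdef stands at 12.31 and 12.38 in T1, above all other arrays, and Tff3 is below all control arrays in both transgenic mice.

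Retnlb, a resistin-like protein with antibacterial action that goblet cells secrete into the lumen, had higher means in both transgenic mice. Levels were 15.32 and 15.28 on the arrays of control mouse 1, 15.24 and 14.87 on those of control mouse 2, 15.83 and 15.80 on those of transgenic mouse 1, and 15.43 and 15.18 on those of transgenic mouse 2. Single arrays of transgenic mouse 2 overlapped with those of control mice. The difference between genotypes was 0.38 ± 0.24 (SE, limma, adjusted p = 0.701).

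After normalization Galnt12, which links N-acetylgalactosamine to serine and threonine in mucins, was likewise highest in transgenic mouse 1. Its mean raw signal was 916 there and 945 in transgenic mouse 2, so this order depends on the scaling between arrays. Its levels were 9.55 and 9.48 in control mouse 1, 9.04 and 9.28 in control mouse 2, 9.98 and 10.16 in transgenic mouse 1, then 9.58 and 9.50 in transgenic mouse 2. Transgenic mouse 2 was close to control mouse 1, at means of 9.54 and 9.51. The difference between genotypes was 0.47 ± 0.26 (SE, limma, adjusted p = 0.676).

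Spink4 and Klk1 differed least between genotypes. Spink4 levels ran from 15.36 to 15.83 on control arrays and from 15.60 to 15.92 on transgenic arrays, a difference of 0.18 ± 0.19 (SE, 95% interval -0.31 to 0.67, limma, adjusted p = 0.808). Klk1 levels ran from 15.13 to 15.46 on control arrays and from 14.87 to 15.41 on transgenic arrays, a difference of -0.09 ± 0.23 (SE, 95% interval -0.68 to 0.51, limma, adjusted p = 0.926). The transgenic mice stood on either side of the control mean for Klk1, at 0.16 in mouse 1 and -0.33 in mouse 2. Its raw signals were 38268 and 40187 in control mouse 1, 45351 and 45541 in control mouse 2, 36161 and 37155 in transgenic mouse 1, then 31670 and 35116 in transgenic mouse 2. On the raw scale every transgenic array was thus below every control array, so the direction in transgenic mouse 1 depends on the scaling between arrays; with none, the difference between genotypes was -0.27 (limma, adjusted p = 1.00). Klk1 belongs to a family of near-identical neighbours, and its probe was not checked for cross-hybridisation.

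**Figure D2:**
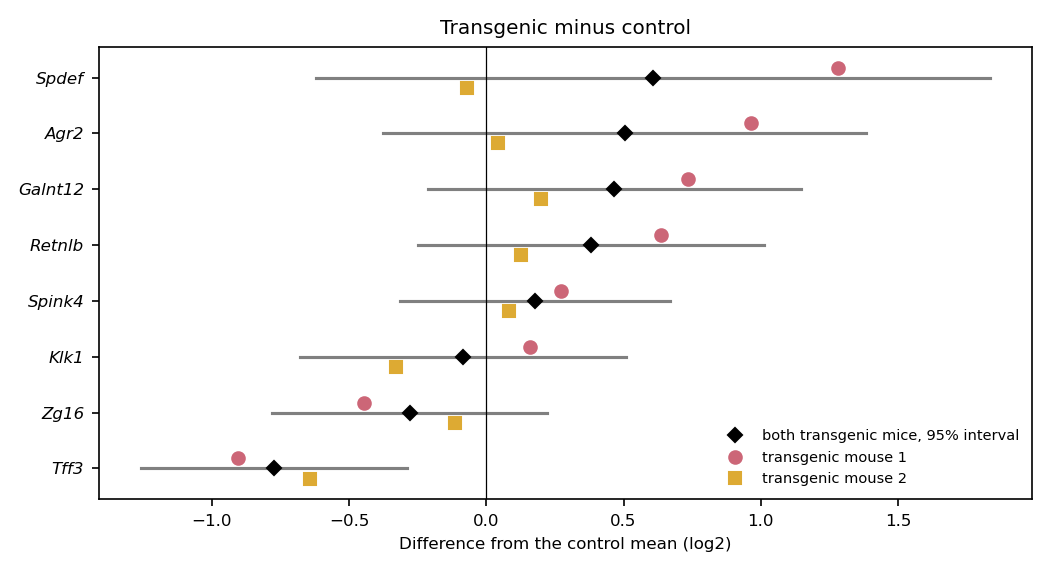
Difference from the control mean (log2, horizontal axis) for each goblet cell gene. Diamonds are the mean of both transgenic mice with the unadjusted 95% interval of the limma fit as a grey line, circles are transgenic mouse 1 and squares transgenic mouse 2. The interval of Tff3 (-1.26 to -0.29) lies below 0, and mouse 1 is farther from 0 than mouse 2 for 7 of the 8 genes, Klk1 being the exception.

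The pair that acts upstream in mucus production, Spdef and Agr2, was high in transgenic mouse 1 and at control levels in transgenic mouse 2. Spdef, an ETS-family transcription factor, had raw signals of 2518 and 2579 in control mouse 1, 2190 and 2128 in control mouse 2, 3933 and 4151 in transgenic mouse 1, then 2492 and 2419 in transgenic mouse 2. Its normalized levels were 11.12 and 11.27 in control mouse 1, 10.80 and 11.09 in control mouse 2, 12.38 and 12.31 in transgenic mouse 1, then 11.04 and 10.95 in transgenic mouse 2. Transgenic mouse 1 was above every other mouse on both scales, and the mean of transgenic mouse 2 lay between those of the control mice. The difference between genotypes was 0.61 ± 0.47 (SE, limma, adjusted p = 0.742), which is 1.28 from transgenic mouse 1 and -0.07 from transgenic mouse 2. With mouse 1 as the sole transgenic mouse the difference of Spdef was 1.28, but only the control mice then give the spread.

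Agr2, a protein disulfide isomerase of the endoplasmic reticulum, was likewise highest in transgenic mouse 1, with more scatter between arrays. Levels were 8.49 and 8.76 in control mouse 1, 8.79 and 8.66 in control mouse 2, 9.27 and 10.01 in transgenic mouse 1, then 8.39 and 9.05 in transgenic mouse 2. The arrays of a transgenic mouse lay 0.74 and 0.67 apart, more than for any other member, and those of transgenic mouse 2 spanned all control arrays. The difference between genotypes was 0.50 ± 0.34 (SE, limma, adjusted p = 0.711), where transgenic mouse 1 stood at 0.96 and mouse 2 at 0.04. With mouse 1 as the sole transgenic mouse the difference of Agr2 was 0.96, where again only the control mice give the spread.

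Sequences at transcript starts of Spdef and Agr2 are shown because these genes differed most between the transgenic mice, and that of Klk1 because it holds the fewest CpG sites, where DNA methylation sits, among the 5 genes of the set with a window in the table used. Each is the 250 bases before the start that RefSeq's promoter table gives (build GRCm38.p6), written 5′ to 3′ on the gene's strand, with CpG dinucleotides in capitals. The Spdef stretch is chr17:27728952-27729201 on the minus strand, that of Agr2 chr12:35992675-35992924 on the plus strand and that of Klk1 chr7:44225110-44225359 on the plus strand.
Spdef: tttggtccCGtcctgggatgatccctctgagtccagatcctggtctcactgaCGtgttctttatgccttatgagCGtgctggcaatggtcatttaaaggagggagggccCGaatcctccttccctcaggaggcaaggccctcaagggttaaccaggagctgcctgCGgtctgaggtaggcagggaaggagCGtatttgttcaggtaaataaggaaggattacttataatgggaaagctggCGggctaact
Agr2: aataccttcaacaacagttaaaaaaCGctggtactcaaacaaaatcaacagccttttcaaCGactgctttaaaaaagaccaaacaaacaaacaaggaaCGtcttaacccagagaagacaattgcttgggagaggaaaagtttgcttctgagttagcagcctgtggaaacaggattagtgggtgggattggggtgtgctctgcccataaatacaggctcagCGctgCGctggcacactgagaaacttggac
Klk1: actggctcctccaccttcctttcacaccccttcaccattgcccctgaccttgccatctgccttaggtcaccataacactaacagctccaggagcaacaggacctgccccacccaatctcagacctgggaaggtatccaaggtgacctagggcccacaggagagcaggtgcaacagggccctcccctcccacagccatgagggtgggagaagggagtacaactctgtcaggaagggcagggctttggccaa
The stretches hold 7, 5 and 0 CpG dinucleotides in this order. Spdef has several RefSeq transcripts, and its gene span reaches farther upstream than the start used, so the stretch shown for Spdef lies within the gene. Methylation was not measured in the data used here.

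Promoter windows of 300 bases, which add 50 bases after the start, were found in the RefSeq table for 5 of the 10 genes. Over 32841 windows of all genes the median was 7 CpG per window, with quartiles of 3 and 20. Spdef, Agr2 and Fcgbp had 7 each, Muc2 had 6 and Klk1 had 1. On either strand, the E-box CAGCTG, a form of the site bound by the secretory factor Atoh1 and its relatives, was found in the windows of Muc2 and Fcgbp and in 16.3% of all windows. The forkhead motif TGTTTNC was found in those of Muc2 and Agr2 and in 20.5% of all windows, where in Agr2 it starts at position -87 relative to the start used. The motif TATAAA was found in that of Muc2 and in 13.6% of all windows.

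Between the mice of a genotype, 6 members were called in the transgenic pair and 0 in the control pair. The spread here is between arrays of the same RNA, so these tests compare RNA samples of single mice and not conditions. Transgenic mouse 1 differed from transgenic mouse 2 for 6 of the 8 members (limma over arrays, adjusted p under 0.05), where 46.8% of all rows did. Of these 6, Spdef, Agr2, Galnt12, Retnlb and Klk1 were higher in mouse 1 and Zg16 was lower. Over all rows, 25.2% were called higher in mouse 1 and 21.7% lower. Between the control mice 0 of 8 members were called (limma over arrays; 8.77% of all rows), while at an unadjusted p under 0.05 there was 1 of 8, and 3 of 8 with the authors' log2 values. A count of 0 among 8 is near that background share.

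Spdef had the largest of these differences. It was 1.35 ± 0.12 (SE over arrays), or 2.55-fold, higher in transgenic mouse 1 than in transgenic mouse 2 (limma, adjusted p = 8.9e-06) and 0.25 higher in control mouse 1 than in control mouse 2. Agr2 followed at 0.92 ± 0.25 (adjusted p = 0.0108), then Galnt12 at 0.53 ± 0.12 (adjusted p = 0.0037), Retnlb at 0.51 ± 0.14 (adjusted p = 0.0111) and Klk1 at 0.49 ± 0.12 (adjusted p = 0.0059). The lectin Zg16 was at -0.33 ± 0.12 (limma over arrays, adjusted p = 0.0427), a call that was lost under 4 of 6 alternatives, with -0.12 (adjusted p = 0.488) when arrays were scaled on the rows detected on all 8. Tff3, at -0.26 ± 0.11, and Spink4, at 0.19 ± 0.13, did not pass (adjusted p = 0.0745 and 0.249). The median absolute difference of the 8 members was 0.50 between transgenic mice and 0.19 between control mice, against 0.30 and 0.15 for all rows. After normalization transgenic mouse 1 was the highest or the lowest of the 4 mice for all 8 members, a position it held in 71.7% of all rows. On the raw scale it was neither for Galnt12 and Klk1.

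Several of these values depended on the scaling between arrays, and the arrays of transgenic mouse 1 had the lowest mean raw signals, as given above. With no normalization between arrays the median of all rows was -0.48 in mouse 1 relative to mouse 2, against 0.04 after quantile normalization, and 3 members passed: Spdef at 0.74, Zg16 at -0.67 and Tff3 at -0.77. Under the same setting Galnt12 turned to -0.04, and the values of Agr2, Retnlb and Klk1 no longer passed. Agr2 also missed the threshold with the background inferred from all rows (0.54, limma, adjusted p = 0.0835) and with no detection filter (adjusted p = 0.0568), and Galnt12 under median scaling (0.31, adjusted p = 0.0826). Spink4 was called under median scaling (0.48, limma, adjusted p = 0.0065) and under scaling on the rows detected on all arrays (0.67, adjusted p = 0.00083). Tff3 was called with the authors' log2 values and under median scaling as well (-0.26 and -0.42, limma, adjusted p = 0.0424 and 0.0111). Spdef was called higher in transgenic mouse 1 under all 6 alternatives run on this comparison.

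**Figure D3:**
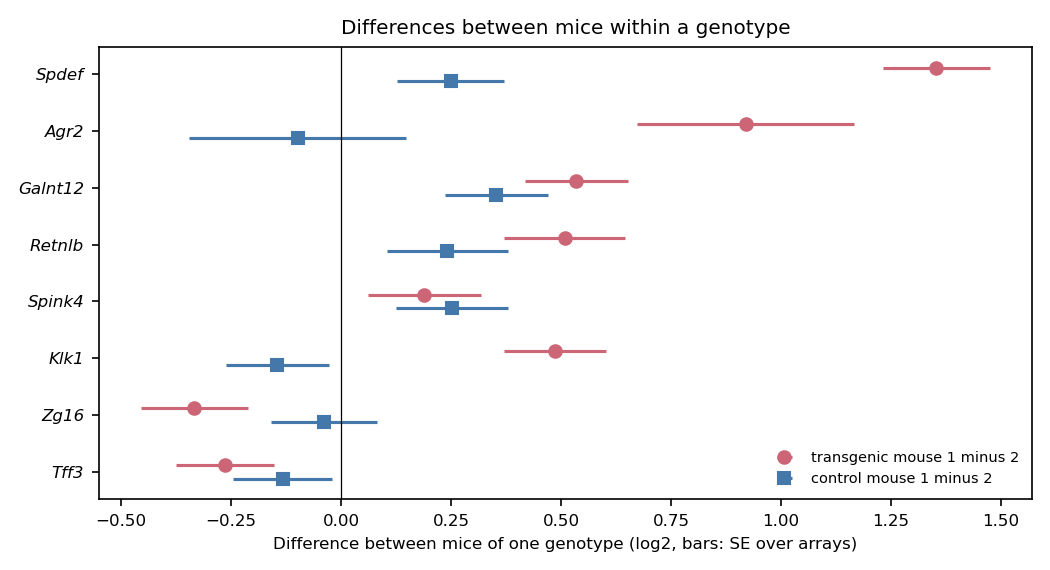
Difference between mouse 1 and mouse 2 of a genotype (log2, horizontal axis) for each goblet cell gene, with the transgenic pair as circles and the control pair as squares. Bars are the SE over arrays. Spdef (1.35) and Agr2 (0.92) stand farthest from 0 in the transgenic pair, and the control pair stays between -0.14 and 0.35.

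Other goblet cell genes were also mostly higher in transgenic mouse 1 than in mouse 2, and none passed between genotypes. Of 41 listed, 31 were on the array and 26 were tested, and 0 passed between genotypes (limma; 2 were higher and 0 lower at an unadjusted p under 0.05). Their median difference was 0.10, made up of 0.58 in transgenic mouse 1 and -0.10 in transgenic mouse 2. Between these mice, 21 of the 26 were called higher in mouse 1 and 2 lower, against 25.2% and 21.7% of all rows; with no normalization between arrays these were 9 and 3. Of the genes with the highest levels, Clca1 was at 15.86 in control and 15.80 in transgenic mice and the antimicrobial ribonuclease Ang4 at 15.67 and 15.74, with differences of -0.05 and 0.07. Raw signals of Clca1 were 56044 to 63418 on control arrays, reaching the highest signal of an array, and those of Ang4 were 52505 to 59505, so small differences of these genes at the top of the scale cannot be read as stability. Clca2, related to Clca1, was at 6.50 and 7.67 (difference 1.16 ± 0.19, SE, limma, adjusted p = 0.188), detected on 2 of 4 control arrays and on all transgenic arrays. The list also held Sct, a hormone of enteroendocrine cells, at 0.92 ± 0.20 (SE, limma, adjusted p = 0.313).

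Transcription factors of the secretory lineage gave a like picture, with exceptions. Between the transgenic mice, 10 of the 15 tested were called higher in mouse 1 and 3 lower (limma over arrays; 25.2% and 21.7% of all rows). The 3 lower ones were Klf4 at -1.32, Elf3 at -0.58 and Cdx2 at -0.44 (limma over arrays, adjusted p = 3.6e-06, 0.00069 and 0.0428). The counts for these factors were not rerun under other scalings between arrays. Of the 10 higher ones, Foxa3, Creb3l1, Creb3l4, Hes6, Neurog3 and Bhlha15 were also higher in mouse 1 on the raw scale. Raw signals of Gfi1, Foxa1 and Sox9 overlapped between these mice, and those of Xbp1 were lower in mouse 1. Of 20 listed, 15 were tested and 0 passed between genotypes (limma; 2 higher at an unadjusted p under 0.05), with a median of 0.18, at 0.51 in transgenic mouse 1 and -0.02 in mouse 2. Both of the 2 are of the basic helix-loop-helix class: Bhlha15, a factor of professional secretory cells, was at 1.31 ± 0.50, and Neurog3, which starts enteroendocrine fate, at 1.24 ± 0.35 (SE, limma, adjusted p = 0.592 and 0.460). Xbp1, which widens the secretory apparatus, was at 0.34, and the intestinal factor Cdx2 at 0.24, with 0.02 in transgenic mouse 1 and 0.46 in mouse 2. Atoh1, which commits crypt cells to the secretory branch, was on the array and detected on none of the 8.

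Enzymes that build and sulfate mucin sugars were spread around 0 between genotypes, with 20 differences above it and 9 below. Of 49 listed, 29 were tested and 0 passed (limma, 1 higher and 2 lower at an unadjusted p under 0.05), with a median of 0.08. Between the transgenic mice, 14 of the 29 were called higher in mouse 1 and 5 lower (limma over arrays, 25.2% and 21.7% of all rows). Other scalings between arrays were not run for this count. The sialyltransferase St6gal1, which acts on N-linked chains, was at 11.84 and 11.93 in control mice and 11.07 and 10.66 in transgenic mice, a difference of -1.02 ± 0.21 (SE, limma, adjusted p = 0.266). St3gal4, another sialyltransferase, was at 1.05 ± 0.30 (SE, limma, adjusted p = 0.460). At high levels, St3gal6 was at 0.44 and B4galnt2, which makes the Sda sugar of colonic mucus, at -0.23. Of the other mucins only 3 were tested and 0 passed (limma; 0 at an unadjusted p under 0.05): the membrane mucins Muc13 at -0.05, Muc4 at 0.57 and Muc1 at 0.39.

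Relatives of the members within the trefoil, resistin-like and kallikrein families were mostly undetected, with 3 of 26 on the array tested. Tff2, a trefoil peptide known from the stomach, had raw signals of 125 to 179 on control arrays, where 1 of 4 detected it, of 2583 and 2851 in transgenic mouse 1, and of 857 and 980 in transgenic mouse 2. Its level was thus higher on every transgenic array than on any control array, the opposite order to its relative Tff3. The difference was 4.51 ± 0.78 (SE) on the log2 scale and did not pass over all rows (limma, adjusted p = 0.200); since most control arrays did not detect Tff2, no exact fold is given. The kallikreins Klk1b5 and Klk1b27 were at -0.27 and -0.34. After normalization they were near Klk1 in being lower in transgenic mouse 2 (-0.70 and -0.63) than in mouse 1 (0.16 and -0.05). On the raw scale Klk1b27 overlapped between these mice. Klk1b5 stayed higher in mouse 1 than in mouse 2, but its raw signals in mouse 1 were below all control arrays. Cross-hybridisation of these probes was not checked either. The row of Klk1b27 had signals of 12611 to 18990 on control arrays although its detection value called it undetected there; that value is not a multiple of the step seen in most rows.

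Of 17 tested genes for folding in the endoplasmic reticulum, 0 passed between genotypes (limma; 6 higher and 0 lower at an unadjusted p under 0.05, where 8.36% of all rows passed in either direction). Their median was 0.33, at 0.57 and 0.25 in transgenic mice 1 and 2. Ero1b, an oxidase that supplies disulfide isomerases, was at 0.96 ± 0.16 (SE, limma, adjusted p = 0.200; detected on 1 of 4 control arrays), and the chaperone Hspa5 at 0.74 ± 0.17 (SE, adjusted p = 0.355; 3 of 4). The abundant disulfide isomerase P4hb was at 0.52 and Herpud1, of the degradation branch, at 0.17.

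Genes of deep crypt secretory cells and of the type 2 response on goblet cells had few tested rows, 5 and 4, and 0 passed in either (limma; 1 and 2 at an unadjusted p under 0.05). Spink1, a trypsin inhibitor of the same class as Spink4, was at 14.20 and 14.97 in control mice and 13.28 and 13.23 in transgenic mice, a difference of -1.33 ± 0.30 (SE, limma, adjusted p = 0.313). Tspan8 was at -0.06 and the fatty acid receptor Ffar4 at -0.21. Reg4 was at -0.37, with control mice at 5.66 and 8.47 and transgenic mice 1 and 2 at 5.02 and 8.38. It was detected on 2 of 4 control and 2 of 4 transgenic arrays. In transgenic mouse 1 relative to mouse 2, Reg4 was at -3.36 and Ffar4 at 0.56 (limma over arrays, adjusted p = 3.5e-08 and 0.0045). Il18, an epithelial cytokine that acts on goblet cell maturation in mice, was at -1.33 and the tuft cell kinase Dclk1 at 1.66 (limma, adjusted p = 0.525 and 0.156), while the receptor chain Il13ra1 was at 0.15.

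**Figure D4:**
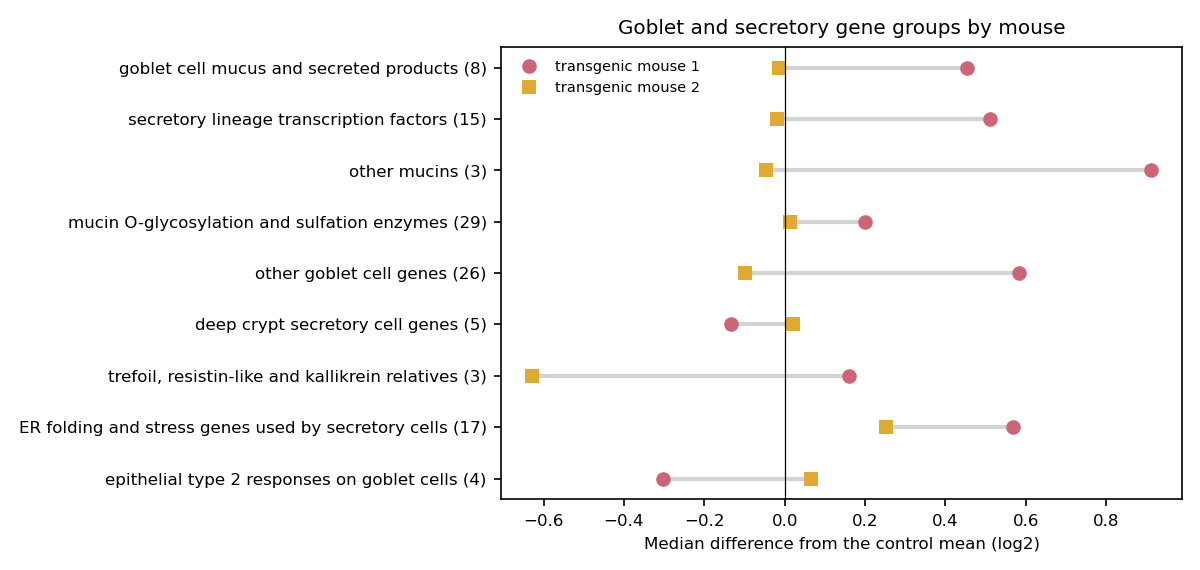
Median difference from the control mean (log2, horizontal axis) of each gene group, with the number of genes tested in brackets. Circles are transgenic mouse 1 and squares transgenic mouse 2. The goblet set lies at 0.45 and -0.01, the other goblet genes at 0.58 and -0.10.

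Markers of other cell types also differed, some in transgenic mouse 1 and some in both transgenic mice. In whole mucosa, fewer cells of a type and less RNA per cell cannot be told apart. Over all rows, 25.2% were called higher and 21.7% lower in transgenic mouse 1 than in mouse 2 (limma over arrays). With no normalization between arrays these shares were 3.47% and 55.5%, and the marker counts were not rerun under it. Between genotypes, 8.36% of all rows passed at an unadjusted p under 0.05 (limma). Of 13 goblet markers, which include the set itself, 10 were on the array. Their summed normalized linear level was 250787 to 274992 on control arrays. It was 275182 to 281139 in transgenic mouse 1 and 243628 to 252015 in transgenic mouse 2. This sum came mainly from Clca1, Spink4, Zg16, Retnlb and Klk1, whose signals lay near the top of the scale. Small differences of the goblet sum thus cannot be read as stability. All 7 tested colonocyte markers were called lower in transgenic mouse 1 than in mouse 2, and the sum over 9 of 11 listed was 54444 to 55181 in mouse 1 against 113154 to 118080 in mouse 2 and 112907 to 115557 in control mice. All 6 tested tuft cell markers were higher in transgenic than control mice at an unadjusted p under 0.05 and 0 at an adjusted one (limma), with a median of 2.18 in transgenic mouse 1 and 1.57 in mouse 2. Their sum over 8 of 9 listed was 7592 to 7858 in transgenic mouse 1, 4441 to 4521 in mouse 2 and 1403 to 1486 in control mice. All 6 were also called higher in transgenic mouse 1 than in mouse 2, as were 7 of 9 enteroendocrine markers. The enteroendocrine sum, over 10 of 10 listed, was 43346 to 43601 in transgenic mouse 1, 20093 to 20609 in mouse 2 and 17347 to 21886 in control mice. Against the control mean, Pyy, Insl5, Gcg, Cck and Sct were at 1.36, 1.43, 1.38, 2.34 and 0.97 in transgenic mouse 1. Cck was detected on 0 of 4 control arrays and on all transgenic arrays. It was thus tested only through the transgenic arrays, and its difference starts from an undetected control signal. Chga, Chgb, Tph1 and Sst were lower in transgenic mouse 1, at -0.57, -0.15, -0.19 and -0.01. All 4 tested T and NK cell markers were lower in transgenic mice at an unadjusted p under 0.05 and 0 at an adjusted one (limma), with a sum over 6 of 7 listed of 601 to 685 in transgenic mouse 1, 823 to 990 in mouse 2 and 1243 to 1552 in control mice. The Paneth cell sum, over 3 of 7 listed with Mmp7 undetected, was 4944 to 5140, 1496 to 1548 and 627 to 914 in the same order. In transgenic mouse 1 most of it came from Pla2g2a. This gene was at 12.20 in transgenic mouse 1, 10.12 in mouse 2, and 9.66 and 8.47 in the control mice. Lyz1 was at 8.40 in transgenic mouse 1, 8.70 in mouse 2, and 6.93 and 8.16 in the control mice. The sum of stem and cycling cell markers, over 5 of 7, was 2224 to 2315, 1808 to 1841 and 1101 to 1328. Of 3 tested genes of position along the colon, all were called lower in transgenic mouse 1 than in mouse 2 (limma over arrays). Osr2, Prap1 and Hoxb6 were at -1.73, -3.16 and -1.10 in this comparison. Relative to the control mean they were at -2.44, -2.23 and -1.30 in transgenic mouse 1, and 0 passed between genotypes (limma). The blood marker Hba-a1 was at -4.90 in transgenic mouse 1 and -1.18 in mouse 2. Of 4 B and plasma cell markers on the array 0 were detected on any array, and of 11 of fibroblasts, smooth muscle and endothelium 9 were not detected on any. The part of these cell types and positions in the goblet gene differences was not tested.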

How the data were processed

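RNA of the colonic mucosa from 4 mice was hybridised to Illumina MouseRef-8 v2 BeadChips, with 2 arrays per mouse. Per the submitters' processing notes the software was BeadStudio and Partek, of unnamed versions. Not given in the sources used here are the scanner settings, how beads were summarised to rows, and a genome build. The authors deposited 1 linear intensity per row and array, with no normalization between arrays. The deposited table also holds a detection value, a fraction that rises with the signal, which was read as 1 minus the detection p. A value table of the authors holds log2 values, quantile normalized and not centred, with column medians of 6.84 or 6.85.

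Rows were named through the platform annotation, which gives 16610 of the 18097 rows a single symbol and 1487 none. Background was corrected by normexp in limma 3.58.1 (R 4.3.3, statmod 1.5.0) with its mean and SD inferred from detection p, over the 13920 rows whose detection values are multiples of 1/798 (tolerance 0.005 of a step). An offset of 16, quantile normalization and log2 followed. Rows with detection p under 0.01 on at least 4 of 8 arrays were tested, 6982 in all.

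For the genotypes, each mouse entered as the mean of its arrays and 2 mice were compared with 2 by lmFit and eBayes, two-sided, with Benjamini-Hochberg adjustment over all rows tested and a threshold of 0.05. Differences between genotypes subtract the control mean from the transgenic mean in log2 units, and understate changes of dim rows. Mice of a genotype were compared over their arrays in a fit with 1 mean per mouse. The numbers of arrays did not pair them: differences between array 1 and array 2 correlated at -0.24 to 0.14 between mice. The few mice limit the precision. Genes named are the members, Dnmt1 and, from each gene group, the 2 tested genes with the smallest p and the 2 with the highest level; a few others were chosen after their values were seen. The members and lists were chosen with earlier results of these data known. The fits were tested on simulated data, and the alternatives tried are given in the closing section.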

Additional observations from a re-analysis of the deposited data

Results flagged for a closer look

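Tff3 stood at 14.23 on array 1 of control mouse 1, below the other 3 control arrays at 14.45, 14.48 and 14.47, a gap that is wide for 4 arrays. This level was still above those of all transgenic arrays. Each member was screened in each genotype, and among independent values chance alone marks about 1 in 20 such groups. That rate need not hold here, since the 4 arrays are pairs from 2 mice.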

How the results depend on the processing

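Between genotypes 9 rows were called over the whole array, and this count moved with most settings: 0 with the background inferred from all rows (556 at an unadjusted p under 0.05, limma), 2 with no detection filter, 1 with rows detected on all 8 arrays, and 188 with 8 arrays and the mouse as a random effect. Adding the array number as a replicate block to the latter gave 137 rows and no member. Leaving out a mouse gave 0 to 849 rows: 0 without control mouse 1 (333 by unadjusted p), 0 without control mouse 2 (199), 57 without transgenic mouse 1 and 849 without transgenic mouse 2. In these fits the lone mouse is assumed to vary like the other genotype. The count of members called stayed at 0 under all alternatives run except without a mouse, where it was 0 to 3: without transgenic mouse 2, Spdef at 1.28, Agr2 at 0.96 and Tff3 at -0.91 were called (limma, adjusted p = 0.0246, 0.0315 and 0.0371). The median difference of the members was -0.013 to 0.45 without a mouse, and turned sign without transgenic mouse 1. Spdef turned to -0.071 without transgenic mouse 1, and Klk1 was at -0.33 without it and at 0.16 without transgenic mouse 2; the cause was not tested.

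Between mice, 395 rows were called in the control pair with the background from all rows, against 612. In the transgenic pair 3 to 7 members were called over the alternatives, against 6, with 3 when arrays were not normalized; Galnt12 then turned to -0.036. The other goblet genes called higher in transgenic mouse 1 then numbered 9. The median of all rows in mouse 1 relative to mouse 2 was 0.04 after quantile normalization, -0.13 under median scaling and -0.48 with none. Under median scaling 12.9% of rows were called higher and 30.7% lower in mouse 1, and with none 3.47% and 55.5%. These scalings of the comparison between mice were chosen after seeing the data. Each member has a single row, so an alternative row gave no value.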
